A study of Mus musculus with 32 samples.

Results

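The transcripts of 10 chemokine ligands were followed in cultured cortical neurons of C57BL/6 mice: Ccl2, Ccl3, Ccl4, Ccl6 and Ccl9 of the CC family, Cxcl1, Cxcl2, Cxcl10 and Cxcl12 of the CXC family, and Cx3cl1, also called fractalkine. They were taken by name from a table of 49671 genes, and all 10 had enough counts to be tested at 6 h and at 5 d. The cultures came from late embryonic wild-type cortices and were either left untreated or incubated with 10 µg/mL of a synthetic oligoribonucleotide, namely miR-92a-1-5p, the second miRNA miR-124-5p, or the control Mut.oligo, which carries a mutated let-7b sequence. RNA was sequenced after 6 h or 5 d, with 4 libraries labelled as biological replicates in each of the 8 conditions, so that 32 libraries were available. The labels also give an experiment batch for each library. There were 7 such batches at 6 h and 6 at 5 d, and 0 batches held libraries of both times. Here they are numbered within each time, with untreated replicates 1 to 4 in batches 1 to 4. The added oligoribonucleotides are not measured by mRNA counts, so that the treatment labels could not be checked against the counts.

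Chemokines are small secreted proteins that direct the migration of cells carrying the matching G protein-coupled receptor, along a gradient of the ligand. Inflammatory members such as Ccl2, Ccl3 and Cxcl2 are made at low levels in the healthy brain and are induced through NF-kB when microglia, astrocytes or endothelial cells meet a danger signal, for example a ligand of a Toll-like receptor. Homeostatic members behave differently: Cx3cl1 is made by neurons as a membrane-tethered protein that is read by Cx3cr1 on microglia, and Cxcl12 guides migrating neurons and leukocytes through Cxcr4. The comparisons ask how the ligands respond to extracellular miRNAs early, and again after long incubation.

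Sequencing depth ranged from 24514090 to 73626029 counted reads, and the median library of 6 h (33021610) was shallower than that of 5 d (50126395). Levels are given as CPM, the usual scaling of counts by the library total. On this scale 3 counts are worth 0.0407 to 0.122, a detection limit for counting error alone. Replicates of a condition were not duplicates, since the chi-square per degree of freedom ranged from 7.1 to 110 over 48 pairs. The cultures were neuronal by their markers: the summed level of 8 neuronal markers lay between 5409 and 7271 CPM in every library. They also held transcripts of other cells. The sum of 15 microglial markers was 27.4 to 80.5 CPM, that of 8 astrocyte markers 371 to 826 CPM at 6 h and 1608 to 2999 CPM at 5 d, and that of 8 mural and fibroblast markers 31.7 to 212 CPM. The sum of 7 markers of infiltrating leukocytes reached no more than 1.45 CPM. In bulk RNA, fewer cells of a type and less RNA per cell cannot be told apart.

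The mature sequence of mmu-miR-92a-1-5p, the oligoribonucleotide that most of the comparisons concern, is shown as RefSeq gives it, with the seed (bases 2 to 8) in capitals. Its genomic position is chr14:115044437-115044459 on the plus strand of GRCm38.p6.
mmu-miR-92a-1-5p: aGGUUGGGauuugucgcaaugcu
The site complementary to this seed, CCCAACC, was present in the 3′ UTR of 2114 of 21166 genes (9.99%). Among the 10 ligands it occurred in 1, Cxcl12, with 1 site in a 3′ UTR of 5188 bases. A match to these letters is a description and not evidence that the site is used.

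Most of the genes are grouped on 2 chromosomes of GRCm38. Ccl2 (ENSMUSG00000035385, chr11:82035571-82037453, plus strand), Ccl9 (ENSMUSG00000019122, chr11:83572919-83578636, minus), Ccl6 (ENSMUSG00000018927, chr11:83587882-83593087, minus), Ccl3 (ENSMUSG00000000982, chr11:83647844-83649355, minus) and Ccl4 (ENSMUSG00000018930, chr11:83662584-83664683, plus) are on chromosome 11. Cxcl1 (ENSMUSG00000029380, chr5:90891241-90893115, plus), Cxcl2 (ENSMUSG00000058427, chr5:90903871-90905938, plus) and Cxcl10 (ENSMUSG00000034855, chr5:92346638-92348889, minus) are on chromosome 5. Cxcl12 (ENSMUSG00000061353, chr6:117168535-117181367, plus) and Cx3cl1 (ENSMUSG00000031778, chr8:94772009-94782427, plus) lie apart. Exons of Cxcl10 overlap those of Art3 on the opposite strand, which the strand-specific counting keeps apart. The reads were counted over exons, so that coding parts and UTRs enter each value.

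The 250 bases before the RefSeq start site are shown for the inflammatory ligands on which the results turn (RefSeq, GRCm38.p6, written 5′ to 3′ on the strand of the gene). Matches to the NF-kB consensus on either strand are in capitals, because this factor is the classical inducer of such genes.
Ccl3 chr11:83649379-83649628 (minus strand): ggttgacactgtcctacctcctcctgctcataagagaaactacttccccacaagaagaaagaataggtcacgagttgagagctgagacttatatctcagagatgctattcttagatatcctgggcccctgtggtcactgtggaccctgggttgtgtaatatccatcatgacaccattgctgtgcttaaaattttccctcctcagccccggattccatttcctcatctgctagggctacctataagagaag
Ccl9 chr11:83578637-83578886 (minus strand): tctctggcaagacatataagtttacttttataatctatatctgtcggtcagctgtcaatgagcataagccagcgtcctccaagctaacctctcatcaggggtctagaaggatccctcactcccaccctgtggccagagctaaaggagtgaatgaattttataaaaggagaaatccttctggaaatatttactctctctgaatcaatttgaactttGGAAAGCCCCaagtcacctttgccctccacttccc
Cxcl1 chr5:90890995-90891244 (plus strand): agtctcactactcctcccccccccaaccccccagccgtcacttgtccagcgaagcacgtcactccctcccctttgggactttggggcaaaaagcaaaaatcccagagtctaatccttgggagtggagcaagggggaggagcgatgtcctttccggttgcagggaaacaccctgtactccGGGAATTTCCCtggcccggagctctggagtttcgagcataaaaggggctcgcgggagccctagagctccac
Cxcl2 chr5:90903649-90903898 (plus strand): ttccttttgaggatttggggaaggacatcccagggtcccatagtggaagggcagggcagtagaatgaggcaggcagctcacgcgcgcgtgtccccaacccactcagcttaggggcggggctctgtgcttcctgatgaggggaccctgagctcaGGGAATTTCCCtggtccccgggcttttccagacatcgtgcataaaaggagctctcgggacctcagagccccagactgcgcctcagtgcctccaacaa
Cxcl10 chr5:92348890-92349139 (minus strand): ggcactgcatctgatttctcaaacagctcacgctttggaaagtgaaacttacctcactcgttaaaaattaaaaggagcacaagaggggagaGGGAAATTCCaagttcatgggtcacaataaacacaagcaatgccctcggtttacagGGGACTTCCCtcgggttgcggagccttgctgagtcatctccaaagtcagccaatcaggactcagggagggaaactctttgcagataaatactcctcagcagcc
Among the 8 ligands with a promoter sequence at hand, 4 held a match, namely Ccl9, Cxcl1, Cxcl2 and Cxcl10, against 3.9% of 32841 promoters of that length. In Cxcl1 and Cxcl2 the capitals are matches on both strands, offset by 1 base. The AP-1 motif TGANTCA was found in 2 of the 8 (Ccl9 and Cxcl10), against 6.75% of all promoters, the interferon-stimulated response element (ISRE) in 1 (Cxcl10), against 2.98%, and the STAT motif in 0, against 7.02%. The letters TATAAA of the TATA box occurred in 2 (Ccl9 and Cx3cl1), against 12.4%. In Cx3cl1 they were 6 to 1 bases before the start site. In Ccl9 they were at 92 to 87 bases on the strand of the gene, and at 224 to 219 and 94 to 89 on the other. Whether any of them works as a TATA box was not tested. Both strands were searched, and no match overlapped one to another motif. The absence of a match, as in Ccl3, says only that these letters are not in this window.

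In untreated cultures the 10 ligands covered a wide range of levels, and the order changed with time. Compared per exon length (RPKM, which is CPM per kilobase of exon, mean ± SD, n = 4), Cx3cl1 was the highest at both times, with 14.5 ± 2.49 RPKM at 6 h and 41.1 ± 5.56 RPKM at 5 d. Ccl3, a macrophage and microglia ligand of Ccr1, came next at 6 h with 6.38 ± 2 RPKM. Cxcl12 and Ccl4, the neighbour and relative of Ccl3, followed with 2.45 ± 0.815 and 2.4 ± 0.852 RPKM and did not differ beyond their spread. Ccl9, a ligand of Ccr1, had 0.945 ± 0.307 RPKM, the interferon-inducible Cxcl10 had 0.563 ± 0.22 RPKM and the monocyte attractant Ccl2 had 0.379 ± 0.218 RPKM. The lowest were Cxcl2 at 0.272 ± 0.054, Cxcl1 at 0.0788 ± 0.0517 and Ccl6, another ligand of Ccr1, at 0.0709 ± 0.0367 RPKM. Raw counts show how few reads stand behind the last of these: Cxcl1 had 5, 4, 1 and 10 counts in untreated replicates 1 to 4 at 6 h, and Ccl6 had 1, 5, 6 and 5. Cxcl2 had 18, 13, 18 and 26 counts, and Ccl2 had 10, 11, 8 and 30.

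**Figure D1:**
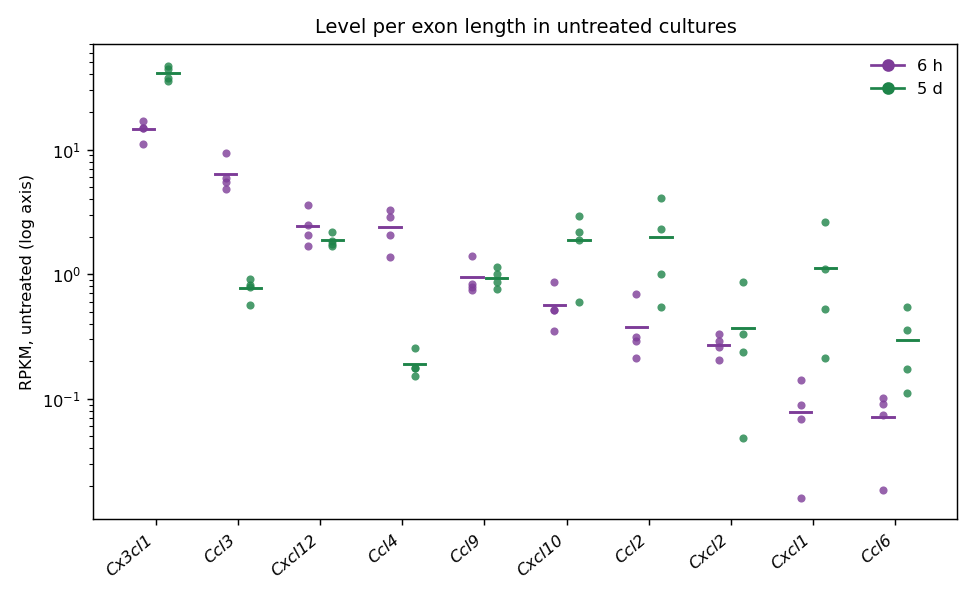
Level of the 10 ligands in untreated cultures, in RPKM on a log axis, with 1 point per library and a bar at the mean of 4. Purple points are 6 h and green points 5 d, and genes are ordered by the mean at 6 h. Ccl3 and Ccl4 lie lower and Cx3cl1, Cxcl10, Ccl2, Cxcl1 and Ccl6 higher at 5 d.

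Between 6 h and 5 d, 7 of the 10 ligands changed in untreated cultures (edgeR, adjusted p under 0.05 and log2 fold change beyond 0.5), 2 of them downward and 5 upward. Of all 20425 genes tested, 33.5% were called by the same rule, so that many genes changed beside these. Ccl3 and Ccl4 fell together. Ccl3 had 136, 130, 122 and 269 counts at 6 h and 37, 30, 36 and 26 at 5 d, in the larger libraries, and its log2 fold change was -3.07 (SE 0.284, adjusted p = 2.55e-10). Ccl4 had 57, 28, 45 and 82 counts at 6 h and 10, 5, 6 and 7 at 5 d, with a log2 fold change of -3.64 (SE 0.337, adjusted p = 2.51e-10). In CPM the groups did not overlap for either gene, nor for Cx3cl1, Cxcl1 and Ccl6. This pattern over time was not counted over all genes. Ccl9, which lies in the same cluster on chromosome 11, had 2.88 ± 0.934 CPM at 6 h and 2.86 ± 0.497 CPM at 5 d.

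Cx3cl1 rose by 1.49 on the log2 scale (SE 0.108, adjusted p = 1.26e-12), from 57 ± 9.79 to 162 ± 21.9 CPM. Cxcl1 and Ccl2 rose most among the ligands, by 3.78 (SE 0.872, adjusted p = 0.000516) and 2.35 (SE 0.656, adjusted p = 0.00319). Without untreated replicate 4 at 5 d these values were 2.93 and 1.74, and without untreated replicate 4 at 6 h they were 4.30 and 2.89, each still past the threshold. Their levels at 5 d were uneven: Cxcl1 had 123, 20, 50 and 298 counts in untreated replicates 1 to 4, and Ccl2 had 155, 31, 58 and 280. Cxcl10 rose by 1.71 (SE 0.396, adjusted p = 0.000552) and Ccl6 by 2.00 (SE 0.453, adjusted p = 0.00043), the latter from single-digit counts to 38, 10, 50 and 19. Ccl9 (log2 fold change -0.03, SE 0.235), Cxcl2 (0.45, SE 0.603) and Cxcl12 (-0.40, SE 0.217, adjusted p = 0.121) did not pass. Without untreated replicate 4 at 6 h, the value of Ccl9 was 0.26, still without passing. No batch spans both times, so that time and batch cannot be told apart, and the summed astrocyte markers were higher in every library at 5 d than in any at 6 h. Their part in these results was not tested.

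**Figure D2:**
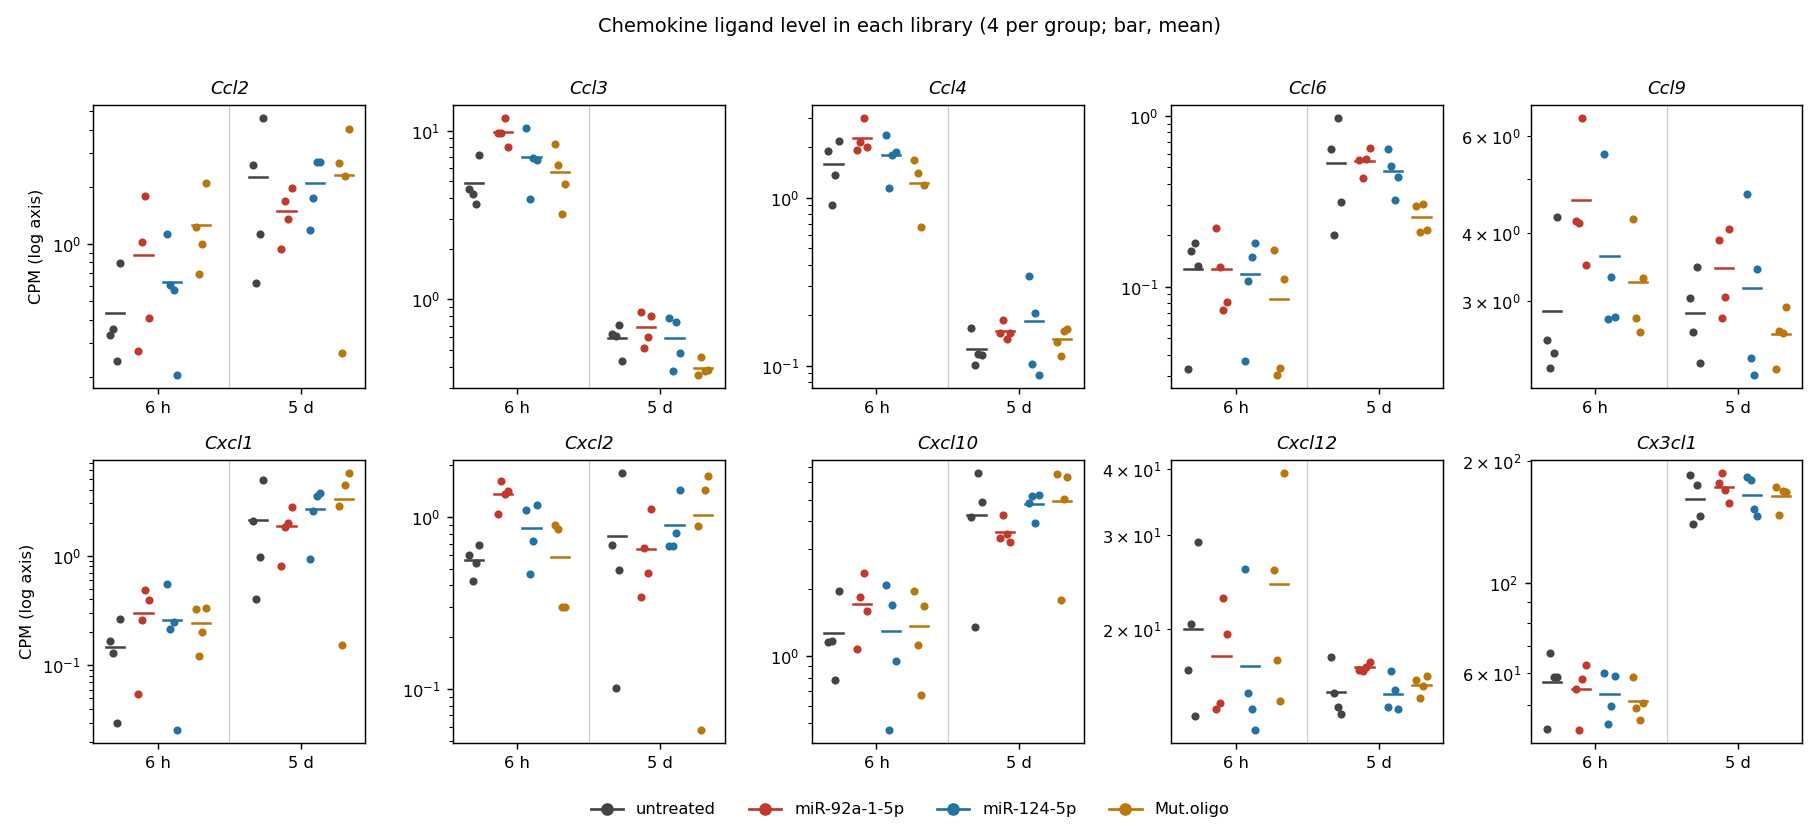
Level of each ligand in all 32 libraries, in CPM on log axes that differ between panels, with 1 point per library and a bar at the mean of 4. Colours mark the untreated cultures and the 3 oligoribonucleotides, with 6 h on the left and 5 d on the right of each panel. The 4 miR-92a-1-5p libraries lie above all 4 untreated libraries at 6 h for Ccl3 and Cxcl2.

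After 6 h of miR-92a-1-5p, Ccl3 and Ccl9 were higher than in untreated cultures once the experiment batch was in the model, and 5 further inflammatory ligands were higher within every batch without passing the test. In the comparison without a covariate, edgeR called 0 of the 10 ligands and 0% of 18755 genes, and DESeq2 called 0. There the smallest adjusted p among the ligands was 0.788, and 3 ligands (Ccl3, Ccl9 and Cxcl2) were higher at an unadjusted p under 0.05, against 2.48% of genes. The log2 fold change was above 0 for 7 of 10, with a median of 0.58, against 0.0055 over all genes. Ccl3 and Cxcl2 were the ligands whose 4 miR-92a-1-5p libraries all lay above the 4 untreated ones, a pattern seen in 1.94% of genes. With the experiment batch as a covariate, which was an alternative, 2 of 10 passed, Ccl3 and Ccl9, against 0.208% of genes. In that fit 6 ligands were higher at an unadjusted p under 0.05 (Ccl2, Ccl3, Ccl4, Ccl9, Cxcl1 and Cxcl2), against 7.26% of genes.

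Each untreated library at 6 h had a miR-92a-1-5p library of its own batch, so that the comparison can be read in 4 pairs. Ccl9 moved most evenly. In CPM its untreated replicates 1 to 4 were at 2.55, 2.27, 2.41 and 4.27, and miR-92a-1-5p replicates 2, 4, 1 and 3 of the same batches were at 4.16, 3.49, 4.21 and 6.47. Untreated replicate 4 thus overlapped with the miR-92a-1-5p group although it was below its own partner. The log2 fold change with batch was 0.67 (SE 0.0985, 95% interval 0.46 to 0.88, adjusted p = 0.00536), and 0.66 (SE 0.253) without it. Leaving out each of the 8 libraries in turn with the batch in the fit, which was added after the data were seen, kept the call of Ccl9 in 6 of 8 cases. It was lost without miR-92a-1-5p replicate 4 (adjusted p = 0.0526) and without untreated replicate 2 (adjusted p = 0.0542).

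Ccl3 is the most abundant of the inducible ligands at 6 h. Its untreated replicates had 136, 130, 122 and 269 counts, and their partners 446, 590, 350 and 489. The log2 fold change was 1.03 with batch (SE 0.17, 95% interval 0.67 to 1.39, adjusted p = 0.00984), and 1.00 without it (SE 0.278, adjusted p = 0.941). The call held without miR-92a-1-5p replicate 1 or 3, and it was lost without each of the other 6 libraries, with adjusted p between 0.016 and 0.0811 over the 8 cases and fold changes of 0.89 to 1.16. Cxcl2, a neutrophil attractant read by Cxcr2, had 18, 13, 18 and 26 untreated counts against 74, 104, 38 and 56 in the partners. It had the largest fold change of the ligands, 1.28 with batch (SE 0.294, adjusted p = 0.0503), and did not pass, except without miR-92a-1-5p replicate 1 (adjusted p = 0.0264).

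The remaining inducible ligands were weaker or more uneven. Ccl2 had 10, 11, 8 and 30 untreated counts against 47, 30, 10 and 73 in the partners, with a log2 fold change of 0.94 with batch (SE 0.26, adjusted p = 0.115). The batch differences ran from 0.15 to 1.48. Cxcl1 had 5, 4, 1 and 10 counts against 12, 29, 2 and 20, which gave 1.01 (SE 0.362, adjusted p = 0.222) on very few reads. Ccl4 had 57, 28, 45 and 82 counts against 99, 147, 70 and 123, with 0.55 (SE 0.2, adjusted p = 0.236), and Cxcl10 had 35, 36, 26 and 74 against 84, 117, 39 and 96, with 0.45 (SE 0.214, adjusted p = 0.385). Together with Ccl3, Ccl9 and Cxcl2, these made 7 ligands that were higher in 4 of 4 batches, against 12.6% of genes. The depth of the partner libraries was larger, and these differences are scaled to it. Ccl6 had 1, 5, 6 and 5 untreated counts and 6, 6, 8 and 3 in the partners, and differed in sign between batches.

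For the homeostatic ligands the differences were small. Cx3cl1 was at 54.8 ± 8.28 CPM after miR-92a-1-5p and 57 ± 9.79 CPM without. It was lower in 4 of 4 batches, as were 12.6% of genes, and its log2 fold change with batch was -0.06 (95% interval -0.13 to 0.02). For Cxcl12, the only ligand with a seed site, the value was -0.15 (SE 0.0616, unadjusted p = 0.0235, adjusted p = 0.273), and 3 of 4 batches were lower. It was the only ligand lower at an unadjusted p under 0.05 in that fit, as were 6.09% of genes. The other oligoribonucleotides gave like values for Cxcl12 at 6 h with batch, -0.17 for miR-124-5p (SE 0.0767) and -0.10 for Mut.oligo (SE 0.0776). The summed microglial markers had nearly the same range in both groups. It was 28.5 to 47.1 CPM after miR-92a-1-5p and 28.6 to 45.6 CPM in untreated cultures, and 4 of the 15 markers had a log2 fold change above 0, with a median of -0.03. All 15 were detected in every untreated library of 6 h, with C1qb (3.99 ± 1.12 CPM) and Cd68 (3.58 ± 0.28 CPM) among the higher of them and P2ry12 (0.115 ± 0.0201 CPM) the lowest, while Tmem119 was at 0.582 ± 0.309 CPM and Aif1 at 1.1 ± 0.34 CPM. In all 4 pairs the miR-92a-1-5p library had the larger sum of mural and fibroblast markers, with log2 differences of 0.0070 to 0.23, and edgeR with batch called 0 of these 8 markers. Their part in the values of the inducible ligands was not tested.

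**Figure D3:**
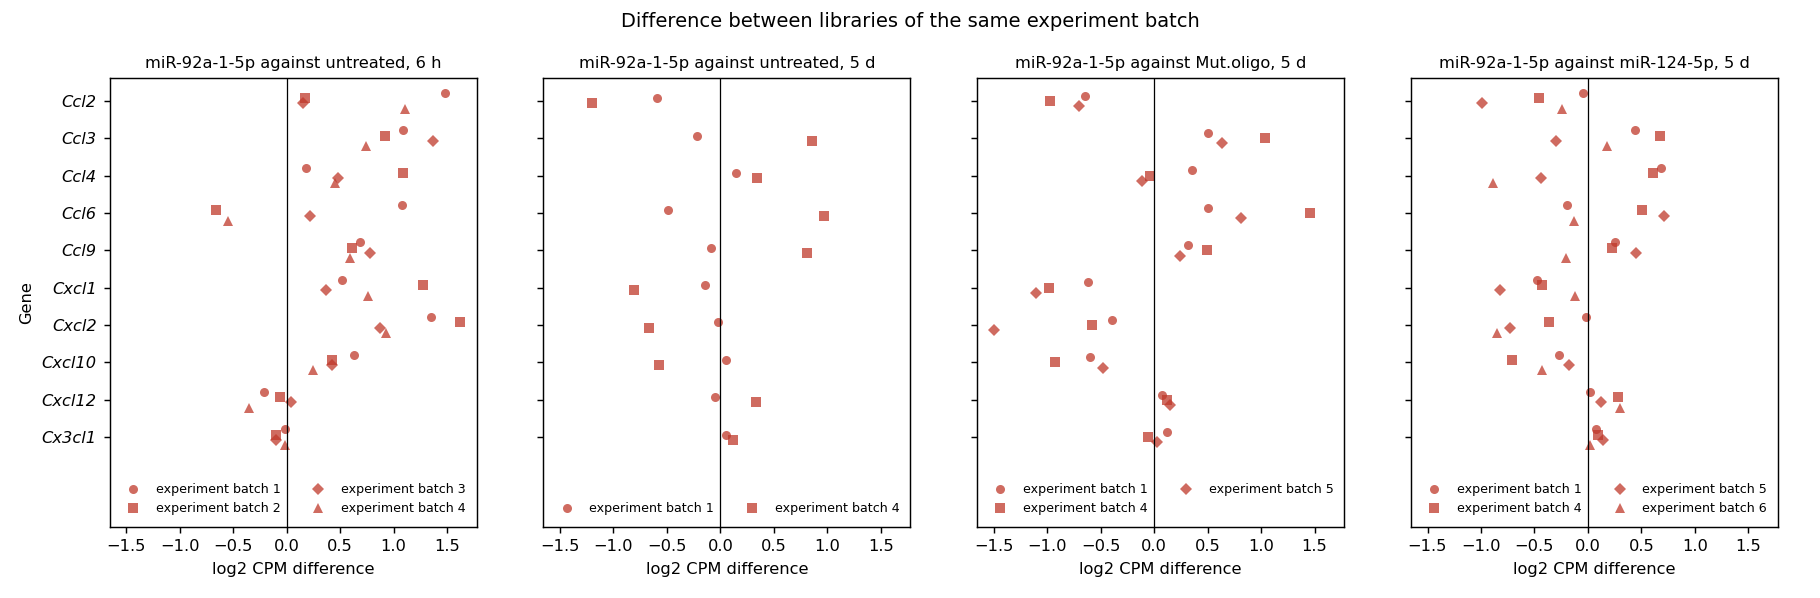
Difference in log2 CPM between libraries of the same experiment batch, with 1 point per batch and a symbol for each batch. The panels compare miR-92a-1-5p to untreated cultures at 6 h (4 batches) and 5 d (2), and at 5 d to Mut.oligo (3) and miR-124-5p (4). At 6 h the points of 7 ligands lie to the right of 0, and at 5 d those of Ccl2, Cxcl1 and Cxcl2 lie to the left in all 3 panels.

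For most ligands the other oligoribonucleotides gave smaller or less even values at 6 h. For miR-124-5p, edgeR called 0 of 10 ligands without batch (0% of genes) and 0 with batch (0%). None reached an unadjusted p under 0.05 without batch, and 2 batches were shared with untreated cultures. In both of them Ccl3, Ccl4, Ccl9, Cxcl2, Cxcl10 and Cx3cl1 were higher, 6 of 10 ligands against 26.1% of genes. Ccl6 and Cxcl12 were lower in both, against 27% of genes. The differences were 0.52 to 0.85 for Ccl3 and 0.62 to 1.04 for Cxcl2. With batch, Cxcl1 (1.02, unadjusted p = 0.0508), Cxcl2 (0.76, unadjusted p = 0.0657), Ccl3 (0.42, unadjusted p = 0.0663) and Ccl9 (0.25, unadjusted p = 0.0596) had the largest positive values relative to their error. The one ligand at an unadjusted p under 0.05 with batch was Cxcl12, which was lower (-0.17, unadjusted p = 0.0422, adjusted p = 0.844), against 2.28% of genes. In raw counts Cxcl2 was at 30, 13, 29 and 46 and Ccl3 at 283, 110, 274 and 262, overlapping with untreated cultures. For Mut.oligo, edgeR called 0 of 10 without batch (0% of genes) and 0 with batch (0.0213%). At an unadjusted p under 0.05 without batch, 1 ligand was higher, against 5.32% of genes. This was Ccl2, with 30, 23, 30 and 56 counts and a log2 fold change of 1.49 (SE 0.578, unadjusted p = 0.0199, adjusted p = 0.455), or 0.73 with batch (SE 0.309, adjusted p = 0.528). Ccl2 was higher in both of the 2 shared batches, by 0.58 and 1.45, as were 27.5% of genes. With batch it was again the 1 ligand higher at an unadjusted p under 0.05, against 4.36% of genes.

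Markers of other cells moved with the value of Ccl2 without batch. Without batch the log2 fold change after Mut.oligo was above 0 for all 15 microglial and all 8 mural and fibroblast markers. This held for 49.9% of all genes. The microglial sum was 29.2 to 49.1 CPM against 28.6 to 45.6 CPM in untreated cultures. That of the mural and fibroblast markers was 74.8 to 212 CPM against 32.3 to 128 CPM. With batch, 7 of 15 and 7 of 8 were above 0, against 49.4% of genes. Their part in the result was not tested. Cxcl12 followed the same libraries, with 24.3 ± 11.1 CPM after Mut.oligo and up to 39.3 CPM in the highest library, and its fold change went from 0.27 without batch to -0.10 with batch.

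Compared directly, miR-92a-1-5p cultures were above Mut.oligo cultures for several inducible ligands, although edgeR called 0 of 10 in either fit (0% of genes in both). At an unadjusted p under 0.05 without batch, 3 ligands were higher, against 1.19% of genes. These were Cxcl2, Ccl4 and Ccl3. edgeR gave Cxcl2 a log2 fold change of 1.21 (unadjusted p = 0.00229), Ccl4 one of 0.89 (unadjusted p = 0.00729) and Ccl3 one of 0.80 (unadjusted p = 0.0106). The groups did not overlap for Cxcl2 and Ccl4, a pattern seen in 0.693% of genes. Cxcl2 had 38, 74, 56 and 104 counts after miR-92a-1-5p and 22, 28, 9 and 8 after Mut.oligo. With batch, Ccl9 had the smallest p (0.61, SE 0.123, unadjusted p = 0.000143, adjusted p = 0.589). Against miR-124-5p, edgeR called 0 of 10 without batch (0% of genes) and with it (0%), and none reached an unadjusted p under 0.05 without batch. With batch, the values were 0.42 for Ccl9 (95% interval 0.17 to 0.67, adjusted p = 0.946) and 0.61 for Ccl3 (95% interval 0.18 to 1.03, adjusted p = 0.946). For Cxcl1 the interval of that difference was -0.83 to 0.81. Cxcl2 differed by -0.17 to 0.31 between the miRNAs in the 2 batches that held both. Between miR-124-5p and Mut.oligo, edgeR called 0 of 10 in both fits (0% of genes each), and none reached an unadjusted p under 0.05 in either. DESeq2 called 0 of 10 ligands in all of these comparisons of miR-124-5p and Mut.oligo, with and without batch. Where DESeq2 gave no adjusted p, a ligand was counted as not called.

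At 5 d the miR-92a-1-5p libraries had less Ccl2, Cxcl1 and Cxcl2 than any other library of their batch. An untreated library was present in 2 of these batches, and 28.6% of genes were lower in both. Some log2 differences were small, down to -0.02 for Cxcl2 against untreated cultures and against miR-124-5p. For Ccl2 against miR-124-5p the smallest was -0.05. In edgeR, 0 of 10 ligands passed the threshold. Without a covariate the count was 0 in each of the 6 comparisons by edgeR and by DESeq2: against untreated cultures the share of all 19333 genes was 0.00517% for miR-92a-1-5p, 0% for miR-124-5p and 0% for Mut.oligo, and it was 0% for each of the 3 comparisons between oligoribonucleotides. With batch, 0 of 10 passed as well, against 0.352% of genes for miR-92a-1-5p, 0.0259% for miR-124-5p and 0.0466% for Mut.oligo. The differences between libraries of one group were large and followed the experiment batch. Ccl2, Cxcl1 and Cxcl2 were lowest in both libraries of batch 2 (untreated and Mut.oligo replicate 2), and in each group they were highest in batch 4, except Ccl2 after miR-124-5p, which was at 2.71 CPM in both batch 4 and batch 5. Cxcl2 had 5 and 3 counts in batch 2, and 109, 50, 65 and 104 counts in batch 4 in untreated, miR-92a-1-5p-treated, miR-124-5p-treated and Mut.oligo cultures, in this order.

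**Figure D4:**
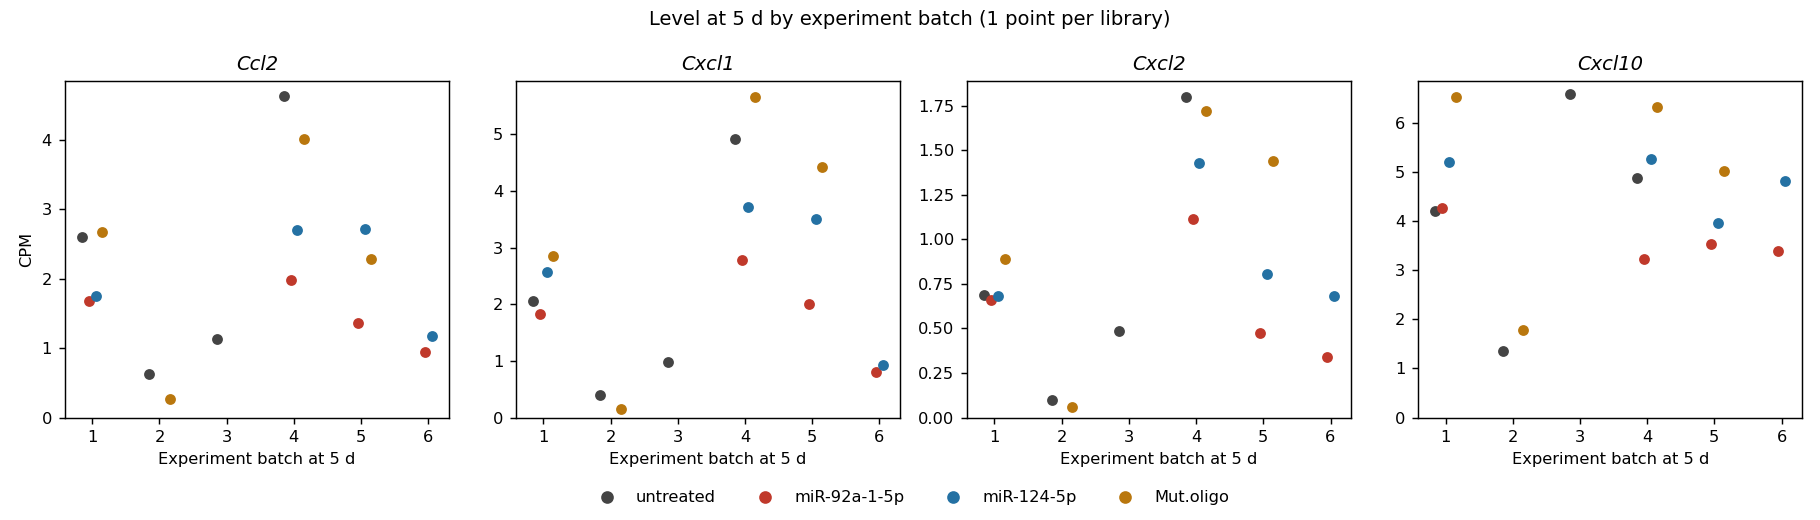
Level of Ccl2, Cxcl1, Cxcl2 and Cxcl10 at 5 d in CPM, by experiment batch, with 1 point per library and a colour for each condition. In batches 4, 5 and 6 the miR-92a-1-5p library is the lowest of its batch in all 4 panels, and batch 2 is low in every panel.

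Within batches, miR-92a-1-5p cultures had less Ccl2 than untreated cultures at 5 d. Untreated replicates 1 and 4 had 155 and 280 counts, and miR-92a-1-5p replicates 2 and 4 of the same batches had 81 and 89. The log2 fold change with batch was -1.04 (SE 0.213, 95% interval -1.5 to -0.57, unadjusted p = 0.000345, adjusted p = 0.0575), which did not pass with edgeR. DESeq2 with batch gave -1.06 and an adjusted p of 0.00239, past the threshold. Without batch it was -0.58 (SE 0.594). Leaving out miR-92a-1-5p replicate 1 gave an adjusted p of 0.0143 in the edgeR fit with batch, and the other 7 cases did not pass, up to 0.399. Cxcl1 (-0.65, unadjusted p = 0.00938, adjusted p = 0.277) and Cxcl2 (-0.67, unadjusted p = 0.0226, adjusted p = 0.384) had the same sign. These 3 ligands were lower at an unadjusted p under 0.05, against 6.23% of genes. Markers of other cells were lower in the same cultures. The sum of 8 oligodendrocyte lineage markers was 86.7 to 167.1 CPM after miR-92a-1-5p and 167.2 to 205 CPM in untreated cultures, and that of 7 endothelial markers was 3.68 to 4.97 and 5.99 to 11.3 CPM, so that the groups did not overlap. Both sums and that of the mural and fibroblast markers were lower in 2 of 2 batches. With batch, edgeR called 4 of 7 tested oligodendrocyte lineage markers (Olig1, Olig2, Sox10 and Pdgfra), 1 of 7 endothelial markers (Kdr) and 2 of 8 mural markers (Acta2 and Tagln), and all 7 fell. Their part in the values of the ligands was not tested.

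The comparison to Mut.oligo, with 3 shared batches, gave the same direction for these genes and for Cxcl10. None of the ligands passed in the edgeR fit with batch, where 0.0103% of genes were called. Cxcl10 had the smallest p, with a log2 fold change of -0.67 (SE 0.108, 95% interval -0.90 to -0.43, unadjusted p = 3.88e-05, adjusted p = 0.125), and DESeq2 with batch called it (adjusted p = 0.00122). Its counts were 206, 171 and 145 after miR-92a-1-5p and 330, 279 and 383 after Mut.oligo in batches 1, 5 and 4. The 2 sets did not overlap among these 6 libraries, a pattern that was not counted over all genes. Over whole groups the ranges did overlap, because Mut.oligo replicate 2 had 93 counts. Mut.oligo itself was above untreated cultures for Cxcl10 in 3 of 3 batches (0.35 to 0.65), as were 13.6% of genes. Against untreated cultures, miR-92a-1-5p differed in sign between its 2 batches (-0.58 and 0.05). Cxcl10 was also lower after miR-124-5p than after Mut.oligo in 3 of 3 batches (-0.33 to -0.22), as were 18% of genes. Cxcl1 (-0.85, SE 0.184), Cxcl2 (-0.87, SE 0.228) and Ccl2 (-0.73, SE 0.193) were also lower in 3 of 3 batches. These 4 ligands were lower at an unadjusted p under 0.05, against 4.85% of genes, and lower in every shared batch, against 15.3%. The summed oligodendrocyte lineage and endothelial markers were also lower in 3 of 3 batches, with log2 differences of -0.53 to -0.22 and -0.30 to -0.041, and their part was not tested.

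Ccl3 and Ccl6 were on the other side of that comparison, the 2 ligands that were higher at an unadjusted p under 0.05 without batch, against 0.817% of genes. Ccl6 had 21, 21, 27 and 29 counts after miR-92a-1-5p and 15, 11, 17 and 13 after Mut.oligo (1.08 without batch, SE 0.373, unadjusted p = 0.0101, adjusted p = 1). Ccl3 had 32, 25, 29 and 36 counts against 18, 24, 21 and 23 (0.79, SE 0.26, unadjusted p = 0.00754). Together with Cxcl12 these were 3 ligands whose groups did not overlap, against 0.864% of genes. Mut.oligo itself was low for Ccl6 against untreated cultures, at -0.995 (SE 0.368, unadjusted p = 0.0151, adjusted p = 0.999). It was the only ligand lower at an unadjusted p under 0.05 in that comparison, against 1.98% of genes. Ccl6 was also the only one higher at an unadjusted p under 0.05 after miR-124-5p than after Mut.oligo (0.87, SE 0.375, unadjusted p = 0.0338), against 1.02% of genes. In the 3 other comparisons at 5 d without batch, none reached an unadjusted p under 0.05. All 15 microglial markers had a log2 fold change above 0 in the comparison of miR-92a-1-5p to Mut.oligo without batch, against 49% of genes. With batch it was 7 of 15, against 48% of genes. Their sums overlapped, with 44.6 to 60.5 CPM after miR-92a-1-5p and 40.3 to 55.3 CPM after Mut.oligo. Their part in these values was not tested.

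The libraries of both miRNAs came from the same 4 batches at 5 d. Relative to miR-124-5p, the miR-92a-1-5p libraries had less Ccl2, Cxcl1, Cxcl2 and Cxcl10 in 4 of 4 batches, 4 ligands of 10 against 6.23% of genes, and Cxcl12 and Cx3cl1 were higher in 4 of 4, against 7.4% of genes. The sizes were modest. Cxcl10 differed by -0.71 to -0.18 between batches (-0.40 in the fit with batch, SE 0.102, unadjusted p = 0.00208, adjusted p = 0.582), and Cx3cl1 by 0.02 to 0.14. None of the 10 passed, against 0.0103% of genes. The summed oligodendrocyte lineage and endothelial markers were lower in 4 of 4 batches as well, with log2 differences of -0.44 to -0.22 and -0.48 to -0.20, and their part was not tested. Against untreated cultures, miR-124-5p had a value of -0.57 for Ccl2 with batch (SE 0.209, unadjusted p = 0.017, adjusted p = 0.83), and Mut.oligo had 0.46 for Cxcl10 (SE 0.114, unadjusted p = 0.00137, adjusted p = 0.435). Between miR-124-5p and Mut.oligo with batch, edgeR called 0 of 10 ligands and 0% of genes. The levels of the other ligands at 5 d lay closer together: Ccl9 was at 2.86 ± 0.497 CPM in untreated cultures and 3.45 ± 0.617 CPM after miR-92a-1-5p, Cxcl12 at 15.2 ± 1.73 and 16.9 ± 0.304 CPM, and Cx3cl1 at 162 ± 21.9 and 173 ± 12.3 CPM. Ccl4 had 4 to 15 counts in all 16 libraries.

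**Figure D5:**
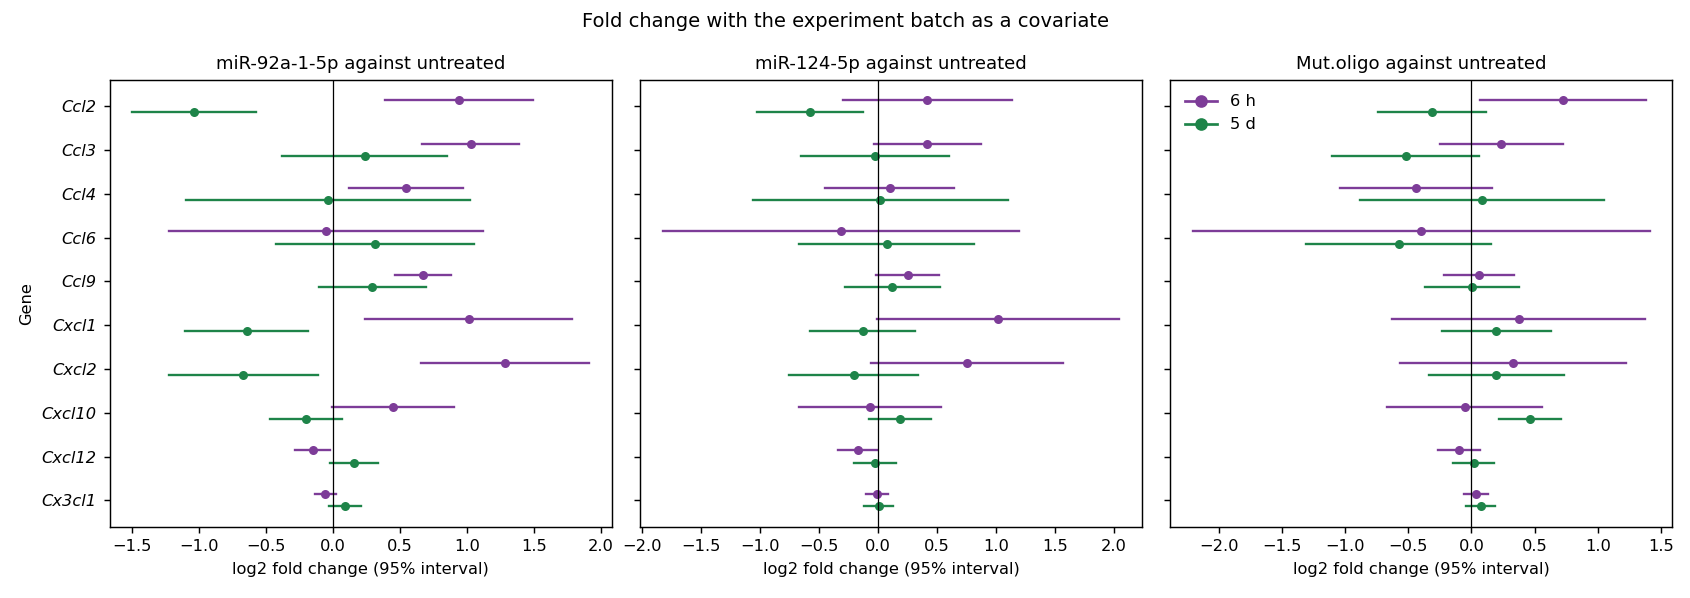
Log2 fold change against untreated cultures with the experiment batch as a covariate (edgeR), with 95% intervals. Purple is 6 h and green 5 d, and each panel is 1 oligoribonucleotide with its own axis. For miR-92a-1-5p, the intervals of Ccl2, Cxcl1 and Cxcl2 lie above 0 at 6 h and below 0 at 5 d.

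Whether the effect of miR-92a-1-5p differed between the times was tested in a fit of all 32 libraries. Without batch, edgeR called 0 of 10 ligands and 0% of 20425 genes, and the same held for miR-124-5p (0%) and Mut.oligo (0%). None reached an unadjusted p under 0.05 in these 3 tests. With batch, a fit added after the data were seen, 1 of 10 passed for miR-92a-1-5p, against 0.137% of genes. This was Ccl2, whose log2 fold change was lower at 5 d than at 6 h by -1.98 (SE 0.344, 95% interval -2.69 to -1.26, adjusted p = 0.0315). The call held in 10 of 16 cases with 1 library left out, with adjusted p from 0.00659 to 0.147. It was lost without miR-92a-1-5p replicate 2 or 3 or untreated replicate 1 or 4 at 6 h, and without replicate 4 of either group at 5 d. In the same fit the oligodendrocyte lineage markers Olig2 and Pdgfra, the endothelial marker Kdr and the mural markers Acta2 and Tagln passed as well, in the same direction. Cxcl2 (-1.95, SE 0.431, adjusted p = 0.0591) and Cxcl1 (-1.65, SE 0.427, adjusted p = 0.114) had differences of like size and did not pass. Ccl3 (-0.79, SE 0.423) and Ccl9 (-0.37, SE 0.208) had intervals that included 0. For miR-124-5p and Mut.oligo with batch, 0 of 10 passed, against 0.0049% and 0.00979% of genes. Ccl2 nevertheless went the same way for both at an unadjusted p under 0.05 in that edgeR fit. For Mut.oligo it was the 1 ligand that was lower by this rule, against 2.17% of genes. For miR-124-5p, Ccl2 and Cxcl1 were lower, against 2.13% of genes.

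The ligands fell into groups by how they varied among libraries, given here as a description without a test, since libraries share batches. Over the 16 libraries of 6 h, Pearson's r of log2 CPM was 0.87 between Ccl3 and Ccl9, 0.87 between Ccl3 and Cxcl2, 0.86 between Ccl3 and Ccl4 and 0.79 between Ccl2 and Cxcl1. Over the 16 libraries of 5 d it was 0.97 between Ccl2 and Cxcl1, 0.95 between Cxcl1 and Cxcl2 and 0.94 between Ccl2 and Cxcl2. Cxcl2 thus varied with Ccl3 at 6 h and with Cxcl1 and Ccl2 at 5 d. At 5 d, r was 0.64 between Ccl3 and Ccl9 and -0.40 between Ccl3 and Cxcl10.

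The genes with the most similar pattern over the 32 libraries, with each time centred on its mean, were sought among 17906 genes for the 5 ligands with at least 10 counts in every library. For Ccl3 these were Ccl9 (r = 0.80), Ccl4 (0.70), Papss2 (0.64), Espn (0.64) and Tnfaip3 (0.62). For Ccl9 they were Ccl3 (0.80), Plek (0.73), Dock2 (0.70), Tnfrsf1b (0.68) and C5ar1 (0.66). Cxcl10 was most like Nfkb2 (0.83), Itga5 (0.82), Csf1 (0.79), Gbp2 (0.79) and Cd44 (0.78). Cxcl12 was most like Enpp1 (0.89), Col4a1 (0.87), Col6a1 (0.87), Hic1 (0.87) and Cyp1b1 (0.85), and Cx3cl1 like Me1 (0.82), Cers1 (0.80), Tspan7 (0.80), Cyp7b1 (0.79) and Lpl (0.79).

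The receptors of these ligands were unevenly represented. Cxcr2, which reads Cxcl1 and Cxcl2, had 0 counts in every untreated and miR-92a-1-5p library, which allows up to 3 counts per library. Ccr1 had 0 counts in these groups at 6 h and up to 7 at 5 d, Ccr2 up to 1 and Cxcr3 up to 4. In contrast, the Cxcl12 receptor Cxcr4 was at 15.6 ± 1.03 CPM in untreated cultures at 6 h and 10.8 ± 4.62 CPM at 5 d, a log2 fold change of -0.56 (adjusted p = 0.00811). The scavenging Cxcl12 receptor Ackr3 fell from 16.7 ± 2.99 to 9.6 ± 1.06 CPM (-0.81, adjusted p = 9.22e-06), and the decoy receptor Ackr1 rose from 55.6 ± 2.28 to 102 ± 13.9 CPM (0.87, adjusted p = 1.72e-09). Cx3cr1, the microglial receptor of Cx3cl1, rose by 0.93 (adjusted p = 0.0492), and Cxcr5 fell, with 22 to 39 counts at 6 h and 0 to 3 at 5 d (adjusted p = 4.27e-09). These were the 5 of 9 tested receptors that changed with time, out of 23 in the list, while 33.5% of all genes were called by that rule.

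Against untreated cultures, 0 receptors and 0 other ligands passed for any oligoribonucleotide at either time, with or without batch, among 8 of 23 receptors and 11 (6 h) or 13 (5 d) of 26 other ligands tested. Cx3cr1 had 0.483 ± 0.238 CPM after 6 h of miR-92a-1-5p and 0.904 ± 0.282 CPM in untreated cultures (-0.95, SE 0.36, unadjusted p = 0.0174, adjusted p = 0.999), and Ackr4, a scavenger of other chemokines, had -0.82 (SE 0.309, unadjusted p = 0.0171). Ccl7, a close relative of Ccl2, had 0 to 23 counts in untreated cultures and 5 to 58 after miR-92a-1-5p at 6 h. With batch its log2 fold change was 1.36 at 6 h (SE 0.352, adjusted p = 0.0855) and -1.0 at 5 d (SE 0.228, adjusted p = 0.0868), the same signs as Ccl2. Cxcl16 was at 0.63 after 6 h of Mut.oligo (SE 0.214, unadjusted p = 0.00927, adjusted p = 0.406). At 5 d, unadjusted p under 0.05 was reached for miR-124-5p by Pf4 (-2.86, on 0 to 13 counts), Cxcr4 (-0.43) and Ackr1 (0.25), and for Mut.oligo by Ackr1 (0.30).

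Of the other ligands, 5 of 14 tested changed with time in untreated cultures, a share near the 33.5% of all genes. Ccl5, an attractant of T cells and monocytes, fell by 4.29 on the log2 scale (SE 0.472, adjusted p = 7.24e-09), from 46 to 110 counts at 6 h to 2 to 12 at 5 d. Ccl17 fell by 1.56 (adjusted p = 0.000132) and the membrane-bound Cxcl16 by 1.37 (adjusted p = 6.36e-05). Ccl7 rose by 2.39 (SE 0.854, adjusted p = 0.0189), and Cxcl5, which like Cxcl1 acts on Cxcr2, rose by 2.49 (SE 0.762, adjusted p = 0.00661).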

How the data were processed

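RNA-seq was performed on 32 libraries of cultured mouse cortical neurons (8 conditions, 4 replicates each). The authors mapped reads of stranded libraries to GRCm38 with STAR, counted reads over exons on the gene's own strand with featureCounts (Subread), and deposited raw counts without normalization. All 32 columns were matched to a sample by name, and 0 columns were left over. Symbols and coordinates came from GENCODE M21, and promoter and miRNA sequences from RefSeq.

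Each time point was modelled in R 4.3.3 with edgeR 4.0.16 over its 4 groups (TMM, quasi-likelihood test), keeping genes that reached 5 counts in 3 or more libraries. No covariate was used, since the study's methods name none. The paper, which used DESeq2, reported Cxcl2, Ccl3 and Ccl9 as raised after 6 h of miR-92a-1-5p, and Cxcl2 also by RT-qPCR. Neither tool called these ligands here without a covariate, and the cause of this difference was not tested. For comparisons between times all 32 libraries were fitted together. A gene was called at a Benjamini-Hochberg adjusted p under 0.05 over all genes tested and a log2 fold change beyond 0.5. Unadjusted p values come from the same fits. CPM and RPKM are scaled to the library total, and log2 CPM values used TMM and a prior count of 2. Within-batch differences are log2 CPM of one library minus that of another of the same experiment batch. The code was first run on simulated counts with known changes.

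As alternatives, the experiment batch or the replicate number was added to the model, DESeq2 1.42.0 was run with and without batch, size factors were taken by RLE, the filter was dropped or set to 10 counts in every library, the fold-change limit was dropped, the fit was restricted to the compared groups, and each replicate was left out in turn. The ligands and gene lists were chosen with earlier results of these data known. All 10 ligands are named, other chemokine ligands and receptors where they passed or had an unadjusted p under 0.05 without a covariate against untreated cultures, receptors of the ligands, and the 5 most similar genes for ligands with at least 10 counts in every library. A further receptor is not reported here. Ccl7 values with batch were chosen after they were seen. Nothing says that replicates were separate cultures beyond the label as biological replicates.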

Additional observations from a re-analysis of the deposited data

Results flagged for a closer look

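Among 80 groups of 4 libraries tested (10 ligands in 8 conditions), 2 held a library far from the others, where chance flags about 1 in 20 groups. Ccl9 in untreated replicate 4 at 6 h was at 4.27 CPM (161 counts), while the other untreated libraries were at 2.27 to 2.55 CPM. The gap to the nearest library was 0.858 of the range of the group, above Dixon's 95% critical value for 4 libraries. Cxcl2 in miR-124-5p replicate 4 at 5 d was at 1.43 CPM (65 counts), against 0.68 to 0.804 CPM in the others, with a gap of 0.835. The untreated and Mut.oligo libraries of the same batch also had the highest Cxcl2 of their groups, at 1.8 and 1.72 CPM.

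The effect of miR-92a-1-5p on Ccl2 differed between the times in the fit with the experiment batch, which was chosen after seeing the data. The difference of the log2 fold changes, 5 d minus 6 h, was -1.98, with an adjusted p of 0.0315 (edgeR). Without the batch it was -1.53 and did not pass. With batch, the same difference for miR-124-5p and for Mut.oligo was also negative for Ccl2, at an unadjusted p under 0.05 (edgeR), without passing.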

How the results depend on the processing

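Adding the experiment batch to the model took the number of ligands called from 0 to 2 for miR-92a-1-5p against untreated cultures at 6 h, with edgeR and with DESeq2 alike, and with DESeq2 from 0 to 1 at 5 d (Ccl2) and from 0 to 1 for miR-92a-1-5p against Mut.oligo at 5 d (Cxcl10), where edgeR with batch called 0. For the difference of the miR-92a-1-5p effect between times it went from 0 to 1 with batch, a fit chosen after seeing the data. With at least 10 counts in every library the calls over time in untreated cultures went from 7 to 3, since fewer ligands were then tested. Signs turned with batch for Cxcl12 (-0.10) and Cx3cl1 (0.036 with edgeR and with DESeq2) after Mut.oligo at 6 h, for Cx3cl1 in miR-92a-1-5p against Mut.oligo (-0.094 with both tools) and against miR-124-5p (-0.056) at 6 h, for Ccl2 after Mut.oligo at 5 d (-0.31 with edgeR, -0.36 with DESeq2), and for Cxcl12 in the difference of the Mut.oligo effect (0.12). The cause was not tested. Leaving out 1 library gave 0 to 0 calls in each comparison within a time and in each difference between times, and 7 to 7 over time. The sign of Ccl9 over time turned to 0.26 without untreated replicate 4 at 6 h, with a range of -0.14 to 0.26 over the libraries left out. With batch, leaving out 1 library was run for miR-92a-1-5p against untreated cultures and gave 0 to 3 calls at 6 h, 0 to 1 at 5 d and 0 to 2 for the difference, also chosen after seeing the data. Of 1327 values of single ligands under alternatives with all replicates, 1311 kept their sign and their side of the threshold, 7 passed it and 9 turned. Of 1520 values with a library left out, 1519 kept both. A sign change with both values within their standard errors was counted as kept (47 and 131 cases).

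Replicate numbers did not pair all samples. The correlation of same-numbered libraries with untreated ones was below 0.1 for at least 1 pair in each comparison. For miR-92a-1-5p at 6 h it was -0.25 to 0.03, where libraries of the same batch had 0.25 to 0.39. For Mut.oligo at 5 d, replicates 1, 2 and 4 did share a batch with the untreated replicate of that number, and the highest value was 0.42. Batch was less clear elsewhere. For miR-92a-1-5p at 5 d, libraries of the same batch had 0.17 to 0.20 and those of other batches up to 0.26. For Mut.oligo at 6 h these were 0.18 to 0.19 and up to 0.31. With the replicate number as a block, 0 ligands were called in the comparisons within a time and in the differences, and 7 over time. Depth limits Cxcl1, Ccl6 and Cxcl2 at 6 h and Ccl4 at 5 d, which rest on few counts. DESeq2 gave no adjusted p for some weakly expressed ligands, for example Ccl2 and Cxcl2 at 6 h. They were counted as not called, and could not have passed there.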
